A study of Mus musculus with 6 samples.

Results

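The synaptic vesicle and release genes are 41 genes whose products build, fill, dock, fuse and retrieve the vesicles of a nerve terminal. They were taken from a list of symbols that was chosen with earlier results of these data known. All 41 had at least 1 probe set on the array that names no other gene, out of 18194 genes named on it. The tissue was olfactory epithelium, the lining of the nose in which odour-sensing neurons sit. In the OMP-GFP allele, as background, green fluorescent protein takes the place of the coding sequence of Omp, olfactory marker protein. By title there were 3 arrays of mice homozygous for OMP-GFP and 3 of heterozygous mice. By these labels every animal carried at least 1 GFP allele, and no wild-type group was used. Loss of Omp thus cannot be told apart from the number of GFP copies. The labels give no age, sex, strain or treatment beyond normal rearing, and do not say whether an RNA came from 1 mouse or several, so each test measures the spread between these samples, which may be technical. Each gene stands for the probe set of highest mean signal (a MAS5 signal, a linear intensity), and 35 of the 41 lay above the filter on dim probe sets and entered the test.

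At a nerve terminal, synaptic vesicles are filled with transmitter by a vesicular transporter, held near the release site by Rab3 proteins and the active zone scaffold, and primed by Unc13 proteins. Calcium entry is sensed by synaptotagmin, and the vesicle SNARE Vamp2 then zips onto Stx1a and Snap25 of the plasma membrane and fuses the membranes, after which Nsf and its adaptors take the SNARE complex apart and dynamin helps retrieve the vesicle. Olfactory sensory neurons are glutamatergic and release onto the olfactory bulb. Their terminals lie in the bulb, while their cell bodies, which hold most of their messenger RNA, lie in the epithelium.

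Among the heterozygous arrays, replicates 1 and 3 stand apart. At Omp probe set 1422199_at the array labelled heterozygous 1 read 26.3, beside 4664 in heterozygous 2, 9143 in heterozygous 3 and 5.7 to 31.3 on the homozygous arrays, and where that probe set lies in the gene is not known here. The other Omp probe set, 1422200_at, did not separate the genotypes, at 7919 to 8774 on homozygous and 7968 to 8709 on heterozygous arrays. The genotype label of heterozygous 1 is thus in doubt, and the name stands below for the array so labelled, in every direction given. At 1422199_at heterozygous 3 also lay well above heterozygous 2, and the cause was not tested. Summed over its 10 genes on the array, the myelin and glia list read 20240 in heterozygous 1 and 8789 to 9589 on the other 5. Of its 6 tested genes 4 were highest there, beside 21.4% of all genes, with Mbp at 7268 beside 655 to 1038 elsewhere. Aqp4 was not raised there, at 4718 beside 4644 to 5416. In heterozygous 3 the summed signal of the 15 olfactory bulb and brain neuron markers on the array was 6138, beside 4323 to 4590 on the other 5 arrays. The counts of lower members are therefore also given without these arrays. Median signals per array lay between 147.9 and 163.7. Markers of the labelled tissue were bright on every array, among them Stoml3 of mature olfactory sensory neurons at 15130 to 20030.

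No synaptic vesicle or release gene passed the test between genotypes, and most of them had slightly lower means in homozygous arrays. Of the 35 tested, 0 had an adjusted p under 0.05 in limma, and the same holds for all 11426 genes tested (0% called, lowest adjusted p 0.689). The homozygous mean was the lower in 30 of 35 members and in 50.2% of all genes tested. The median log2 difference (homozygous minus heterozygous) was -0.09 over the members and -0.00041 over all genes. Unadjusted p values under 0.05 in limma were found for 590 genes, or 5.16%. Among the members Vamp2, Rab3a and Rims1 reached this level, all lower in homozygous arrays, as did 2.56% of all genes, and no member was higher at that level, beside 2.6% of all genes. Groups did not overlap for 4 members, Vamp2, Syngr3, Slc17a6 and Rab3a, all lower in homozygous arrays, beside 5.51% of all genes tested in that direction, and for 0 members in the other direction, beside 4.82%. In bulk tissue, fewer cells of a type and less RNA per cell cannot be told apart. Marker lists of other cells also differed between the same groups, and their part in the members' values was not tested. Of the 7 tested blood and immune markers 7 were higher in homozygous arrays, with a median log2 difference of 0.31 and 5 at an unadjusted p under 0.05 in limma, beside 2.6% of all genes. Of the 10 immature olfactory sensory neuron markers 8 were lower in homozygous arrays, with a median of -0.08, and 4 of them without overlap, beside 5.51% of all genes. Mature olfactory sensory neuron markers went the other way, with 4 of 11 lower, beside 50.2% of all genes, and a median of 0.10. That median was 0.19 without heterozygous 1 and -0.012 without heterozygous 3. Bulb and brain neuron markers were lower in 5 of 7, with a median of -0.23, and 0.044 without heterozygous 3.

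The shift of the list rested in part on the array heterozygous 3. Without it 24 of 35 members were lower in homozygous arrays, beside 53.7% of all genes, with a median of -0.044. Without heterozygous 1, 29 of 35 were lower, beside 47.8% of all genes, with a median of -0.099. Leaving out both gave 21 of 35 lower, beside 52% of all genes, and a median of -0.023. With array medians set equal, 33 of 35 members were lower, and so were 65.4% of all genes. At an unadjusted p under 0.05 in limma, all lower in homozygous arrays, stood 2 members without heterozygous 3 (Vamp2 and Stx1a), beside 4.01% of all genes, and 4 without heterozygous 1 (Vamp2, Syn1, Rab3a and Rims1), beside 3.45%. Past adjustment in limma there was no member without heterozygous 1, beside 0.00875% of all genes.

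**Figure D1:**
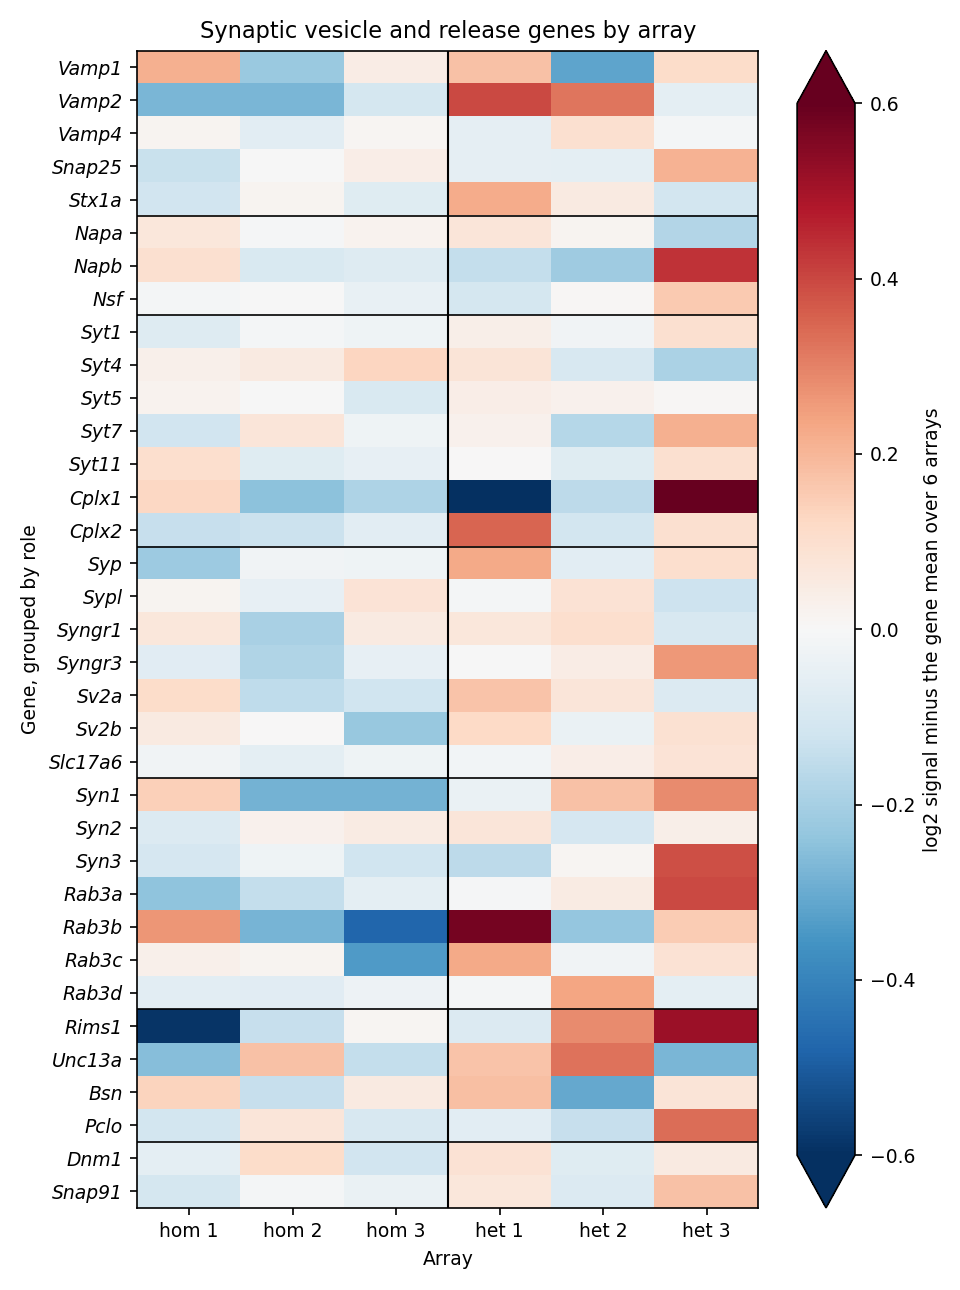
Log2 signal of each of the 35 tested genes (rows, grouped by role) minus its mean over the 6 arrays (columns; hom, homozygous; het, heterozygous); red is above and blue below the gene's mean, and the colour scale ends at 0.6 in either direction. The red column of heterozygous 3 holds Cplx1, Rims1, Napb, Rab3a, Syn3 and Pclo, while Vamp2, Rab3b and Cplx2 are highest in heterozygous 1.

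The promoters of Rab3a and Rims1, which had an unadjusted p under 0.05 in limma, are shown with that of Syn1, whose groups overlapped and which is shown for its RE1 arm and cAMP response element. Sequences run from 250 bases before to 50 after a RefSeq start site (build GRCm38.p6), and 34 of the 41 members had an entry, while Vamp2, Snap25, Syt4, Syt5, Syt7, Syngr3 and Syn3 had none. Capitals mark any match, on either strand, to TGACGTCA (the cAMP response element), TTCAGCACC (the left arm of RE1, the site of the neuronal gene repressor REST), GGGCGG (the GC box) or TATAAA (the TATA box). The Syn1 window (chrX:20920869-20921168, minus strand) holds the RE1 arm and, after it, the cAMP response element, and no GC box. The Rab3a window (chr8:70754453-70754752, plus strand, the upstream of its 2 listed starts) holds 2 GC boxes, and that of Rims1 (chr1:22806109-22806408, minus strand) holds 3. The window of the other Rab3a start, not shown, holds 0 GC boxes.
Syn1: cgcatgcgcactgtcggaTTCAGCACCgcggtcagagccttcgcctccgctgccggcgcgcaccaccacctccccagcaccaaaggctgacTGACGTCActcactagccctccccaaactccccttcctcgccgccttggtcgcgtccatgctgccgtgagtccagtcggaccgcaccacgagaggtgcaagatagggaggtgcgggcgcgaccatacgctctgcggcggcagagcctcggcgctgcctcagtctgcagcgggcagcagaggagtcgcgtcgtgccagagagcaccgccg
Rab3a: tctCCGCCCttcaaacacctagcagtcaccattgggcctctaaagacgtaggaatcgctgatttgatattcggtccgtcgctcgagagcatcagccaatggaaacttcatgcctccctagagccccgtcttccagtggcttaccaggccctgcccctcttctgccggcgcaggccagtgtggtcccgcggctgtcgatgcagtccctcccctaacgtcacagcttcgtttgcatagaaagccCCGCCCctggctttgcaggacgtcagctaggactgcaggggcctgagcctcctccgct
Rims1: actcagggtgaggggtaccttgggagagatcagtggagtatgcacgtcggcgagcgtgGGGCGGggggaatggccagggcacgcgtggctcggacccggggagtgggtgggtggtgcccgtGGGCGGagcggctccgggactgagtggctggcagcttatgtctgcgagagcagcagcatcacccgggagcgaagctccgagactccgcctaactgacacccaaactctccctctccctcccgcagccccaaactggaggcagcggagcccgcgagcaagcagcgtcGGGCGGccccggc
The GC box was found in 30 of the 44 listed promoters of these genes, or 68.2%, and in 35.7% of all 32851 promoters of that length, whose median base composition was 52.67% G and C beside 61.66% for the members. The cAMP response element was found in Syn1 and Napa, and in 1.79% of all promoters. The RE1 arm was found in Syn1 and Unc13a, and in 0.371% of all promoters. The TATA box was found in 3 promoters, of Sv2b and Rab3b, and in 13.6% of all promoters. A match to the palindromic site of the olfactory EBF factors was found in 0 of the 44 and in 0.904% of all promoters. A match describes the letters only, and no measurement here bears on binding.

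Among the SNAREs, the helical proteins that fuse vesicle and plasma membrane, Vamp2 had the lowest p of all members. Vamp2, the main vesicle SNARE of fast synapses, read 703, 704 and 797 in homozygous 1, 2 and 3 and 1142.5, 1082 and 824 in heterozygous 1, 2 and 3 at probe set 1420834_at. The groups did not overlap, and heterozygous 3 lay just above the highest homozygous array. The means were 735 ± 54.0 and 1016 ± 169 (SD, n = 3 each). The log2 difference was -0.44 ± 0.12 (SE). In limma its unadjusted p was 0.00376, place 39 among the 11426 genes, and its adjusted p 0.951. Its other probe set, 1420833_at, read 512, 582 and 558 in homozygous and 688.5, 682 and 593 in heterozygous arrays, again without overlap and with heterozygous 3 lowest of its group, a log2 difference of -0.23 ± 0.10. Vamp2 is the only member for which the unadjusted p stayed under 0.05 in limma under each setting tried, and its difference lay between -0.35 and -0.58 when single arrays were left out.

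The partners of Vamp2 on the plasma membrane differed less. Snap25, which lends several helices to the complex, read 3870, 4246 and 4359 in homozygous and 4088, 4074 and 4912 in heterozygous arrays, the last being heterozygous 3. Its log2 difference was -0.06 ± 0.09, and 0.025 without heterozygous 3. Stx1a, which supplies a further helix, read 2813, 3082.5 and 2899 against 3565, 3161 and 2824. Here heterozygous 1 was highest and heterozygous 3 lay among the homozygous arrays, and the log2 difference was -0.11 ± 0.09, with -0.03 without heterozygous 1 and -0.19 without heterozygous 3. These Stx1a values are from 1437390_x_at, of a kind whose probes may match other transcripts. The other Stx1a probe set, 1448366_at, differed by 0.06, and by 0.03 without heterozygous 3. Vamp1, which acts like Vamp2 in some neurons, differed by 0.02 ± 0.15, a sign that turns when array medians are set equal or quantiles matched (-0.022 and -0.0024), and Vamp4, a SNARE of endosomes and the Golgi, by -0.02 ± 0.08.

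Of the genes that take SNARE complexes apart, none had groups without overlap at its brightest probe set. Nsf, the ATPase that does the work, read 2225, 2242 and 2173 in homozygous and 2085, 2258 and 2504 in heterozygous arrays, a log2 difference of -0.04 ± 0.08. Its other tested probe sets were higher in homozygous arrays. The difference was 0.10 ± 0.08 at 1422455_s_at, without overlap, and 0.16 at 1457205_at, with overlap. Napa, the widely expressed adaptor of Nsf, read 2599, 2466 and 2518 against 2613, 2512 and 2192, a difference of 0.05 ± 0.08. The arrays of the groups overlapped for both genes at their brightest probe sets. Napb, the neuronal form of the adaptor, read 441, 382 and 386 against 368, 348 and 567. Only heterozygous 3 was high, and the difference was -0.05 ± 0.16 with it and 0.15 without it. All 4 tested probe sets of Napb were highest on that array.

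Synaptotagmins and complexins time release to calcium. Syt1, the calcium sensor of fast release, read 2884, 3024 and 2996 in homozygous and 3123, 3001 and 3264 in heterozygous arrays, a log2 difference of -0.07 ± 0.07. Syt11, a synaptotagmin that does not bind calcium, read 3702, 3273 and 3330 against 3452, 3275 and 3682, a difference of -0.01 ± 0.08 that turns to 0.012 with quantile normalization. The groups overlapped at both genes. Syt7, a slower and more sensitive calcium sensor, differed by -0.05 ± 0.10, Syt5 by -0.05 ± 0.09 and Syt4, a synaptotagmin with altered calcium binding, by 0.14 ± 0.10, the largest difference above 0 among the members. Both probe sets of Syt4 were higher in homozygous arrays.

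The complexins, small proteins that clamp and then aid the SNARE complex, depended on single arrays. Cplx1 read 308, 229 and 240.5 in homozygous and 140, 246 and 738 in heterozygous arrays. The lowest and the highest of the 6 arrays were both heterozygous, and the means were 259 ± 42.4 and 375 ± 319 (SD, n = 3 each). The log2 difference was -0.20 ± 0.40 over all arrays, 0.39 without heterozygous 3 and -0.67 without heterozygous 1. Cplx2 read 1142, 1148 and 1204 against 1615, 1167 and 1348. Here heterozygous 1 was highest, and the difference was -0.22 ± 0.11 over all arrays and -0.10 without that array.

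**Figure D2:**
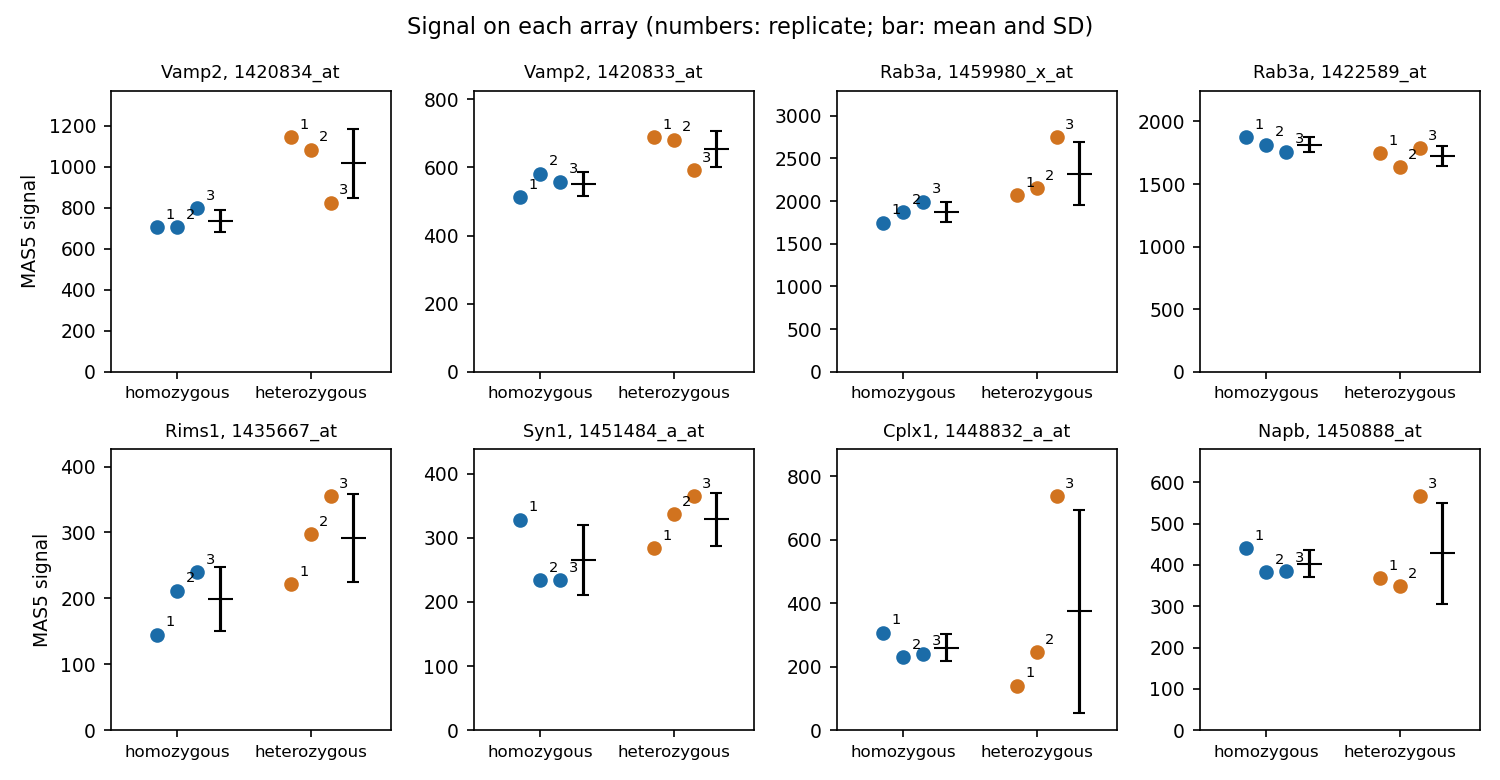
MAS5 signal (linear scale from 0) of 6 genes at 8 probe sets on each array; points are arrays, numbered by replicate, and bars give the mean and SD of 3 arrays. Vamp2 separates the groups at both probe sets, Rab3a at only 1 of 2, and in Cplx1 and Napb heterozygous 3 lies above the other 5 arrays.

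Vesicle membrane proteins had mostly small differences. Slc17a6, the vesicular glutamate transporter that background knowledge assigns to olfactory sensory neurons, read 2537.5, 2470 and 2526 in homozygous and 2544, 2649 and 2724.5 in heterozygous arrays. The groups did not overlap, by a narrow margin, and the log2 difference was -0.07 ± 0.07. Its other tested probe set differed by 0.0024, with overlap. Slc17a7, the transporter of cortical neurons, was below the filter and read 25.4 to 43.9 in homozygous arrays, 45.4 and 27.5 in heterozygous 1 and 2 and 80.3 in heterozygous 3.

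Syngr3, a synaptogyrin of synaptic vesicles, read 274, 251 and 278 in homozygous and 288, 299.5 and 353 in heterozygous arrays. These groups did not overlap. The log2 difference came to -0.20 ± 0.12, or -0.12 with heterozygous 3 left out. Sypl, a relative of synaptophysin found in many tissues, read 3470, 3318 and 3635 against 3403, 3654 and 3145, a difference of 0.03 ± 0.08 that turns to -0.010 with array medians set equal. Syp, synaptophysin itself, a major vesicle membrane protein, differed by -0.18 ± 0.10, and by -0.11 without heterozygous 1. The synaptic vesicle glycoproteins Sv2a and Sv2b both differed by -0.11, with SE of 0.12 and 0.10, and Syngr1 by -0.05 ± 0.10. Sv2c was below the filter and read 71.3 to 190.5 in homozygous and 95.7 to 125.5 in heterozygous arrays.

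Rab3 proteins are small GTPases that bring vesicles to the release site, and all 4 of their genes had lower means in homozygous arrays, though Rab3b was at 0.068 without heterozygous 1 and 3. Rab3a, the main neuronal form, read 1748.5, 1874 and 1993 in homozygous and 2068, 2150 and 2747 in heterozygous arrays at probe set 1459980_x_at. The groups did not overlap, and heterozygous 3 was highest. The log2 difference was -0.30 ± 0.11, with an adjusted p of 0.951 in limma, and -0.17 without heterozygous 3. Its other probe set, 1422589_at, read 1873, 1814.5 and 1759 against 1746, 1635 and 1789, a difference of 0.07 ± 0.07. The probe sets of Rab3a thus disagree in direction by 0.37 on the log2 scale, and names ending in _x_at mark probe sets whose probes may match other transcripts.

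The other Rab3 genes varied within groups. Rab3b, a form of endocrine and some neuronal cells, read 1098, 740 and 641 in homozygous and 1368, 767 and 1012 in heterozygous arrays. Replicate 1 was the highest array in either group, and the log2 difference was -0.33 ± 0.21 over all arrays and -0.12 without heterozygous 1. Rab3d, a form of secretory cells, read 1194, 1190 and 1226 against 1242, 1479 and 1198, a difference of -0.11 ± 0.09. Rab3c differed by -0.20 ± 0.13 at its brightest probe set, with 0.08 at another.

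Synapsins coat vesicles and tether them to actin. Syn1 read 328, 234 and 234 in homozygous and 284, 336 and 365 in heterozygous arrays. The groups overlapped through homozygous 1, and the log2 difference was -0.28 ± 0.15, with -0.42 without homozygous 1 and -0.21 without heterozygous 3. Syn3 read 219, 233 and 216 against 209, 240 and 323, a difference of -0.16 ± 0.15, which was -0.0089 without heterozygous 3. Syn2 differed by -0.0041 ± 0.10, and its 3 other tested probe sets by -0.16 to -0.19. Both synucleins listed, small presynaptic proteins that bind membrane, were below the filter. Sncb read 41.8, 182 and 168 in homozygous and 13.4, 104 and 271 in heterozygous arrays, again with the extremes in heterozygous 1 and 3. Sncg read 69.1 to 116.3 in homozygous and 86.5 to 120.9 in heterozygous arrays.

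The active zone genes encode the scaffold that places vesicles beside calcium channels. Rims1, the Rab3 effector of that scaffold, read 145, 212 and 239.5 in homozygous and 222, 297 and 355.5 in heterozygous arrays, with overlap between homozygous 3 and heterozygous 1. Its means were 199 ± 48.6 and 291 ± 67.0 (SD, n = 3 each). The log2 difference of -0.48 ± 0.19 was the largest among the members, with an adjusted p of 0.951 in limma, and was -0.30 without homozygous 1 and -0.34 without heterozygous 3. Its other probe set was below the filter and differed by 0.02.

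The remaining active zone genes did not separate the groups. Pclo, a giant scaffold protein, read 931, 1064 and 944 in homozygous and 966, 915 and 1282 in heterozygous arrays, a log2 difference of -0.09 ± 0.12, and 0.055 without heterozygous 3. Bsn, its close relative, read 415, 336 and 389 against 429, 295 and 396, a difference of 0.03 ± 0.14 that turns to -0.0097 with array medians set equal. Unc13a, which primes vesicles, differed by -0.15 ± 0.19, and was lowest of the 6 arrays in heterozygous 3. Its difference was -0.32 without that array and -0.02 without heterozygous 2.

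Genes of vesicle retrieval differed little. Snap91, the neuronal adaptor that builds clathrin coats, read 2002, 2134 and 2093 in homozygous and 2259, 2031 and 2441 in heterozygous arrays, a log2 difference of -0.11 ± 0.08. Dnm1, the neuronal dynamin that cuts vesicles from the membrane, read 1679, 1890.5 and 1613 against 1861, 1661 and 1818, a difference of -0.04 ± 0.08. The groups overlapped at both. Dnm3, another dynamin, read 87.8 to 165.9 and 91.1 to 139.5 below the filter, and Syt2, the remaining untested member, read 4.3 to 38.9 in homozygous and 22.2 to 70.7 in heterozygous arrays.

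**Figure D3:**
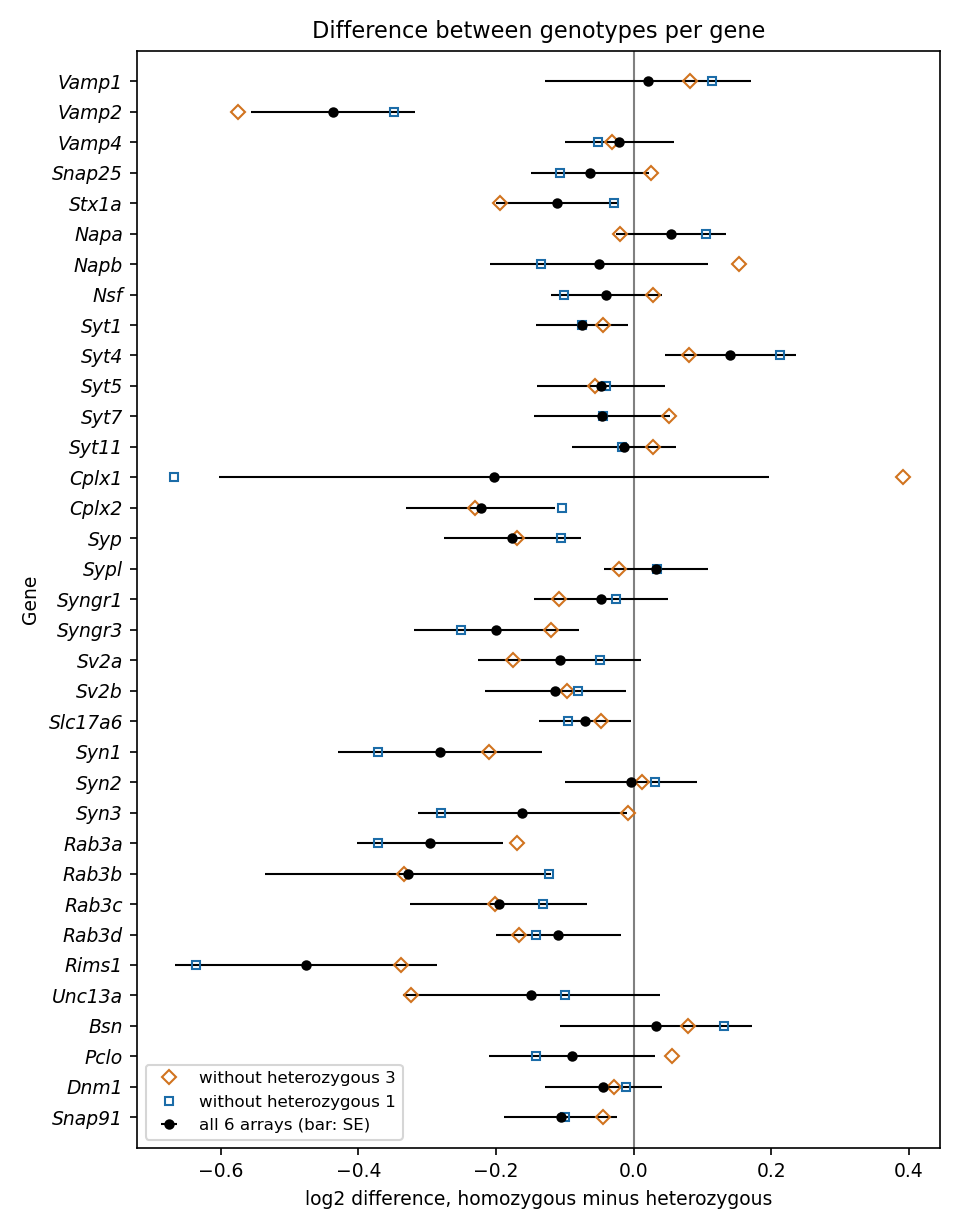
Log2 difference (homozygous minus heterozygous) of the 35 tested genes; black points use all 6 arrays with bars of 1 SE, orange diamonds leave out heterozygous 3 and blue squares leave out heterozygous 1. Vamp2 and Rims1, among other genes such as Syt1, Syp and Syn1, stay below 0 in each case, while Cplx1 moves from -0.67 to 0.39 with the array left out.

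A count over all probe sets of the members is not separate from the count of genes above. The members have 111 probe sets, of which 77 were tested, including the brightest of each tested member, already counted above. Of the 77, 54 were lower in homozygous arrays, beside 46.4% of all 22514 tested probe sets. Of the 22 members with several tested probe sets, all probe sets were lower in 7 (Vamp2, Napb, Syt7, Cplx2, Syngr1, Syn2 and Dnm1), all were higher in 2 (Syt4 and Bsn), and 13 were mixed in sign. Unadjusted p values under 0.05 in limma came from 4 probe sets, both of Vamp2 and 1 each of Rab3a and Rims1, all lower in homozygous arrays, beside 2.4% of all tested probe sets in that direction.

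Heterozygous 3 was then set apart from the other 5 arrays. It was the highest of the 6 arrays for 14 of the 35 members, beside 19.1% of all genes tested, while heterozygous 2 was highest for 5, beside 18.1%. Of the members, 25 lay above the mean of the other 5 arrays in it, beside 44% of all genes. Cplx1 (1.55 on the log2 scale above that mean), Rims1 (0.62), Napb (0.52), Rab3a (0.48), Syn3 (0.46), Pclo (0.40), Syn1 (0.34) and Syngr3 (0.31) exceeded it by over 0.3, as did 6.14% of all genes. Unc13a lay below it by over 0.3, at -0.33, and Vamp2 at -0.07. Heterozygous 1 was the highest array for 12 members, beside 21.4% of all genes, and 3 members, Rab3b (0.69), Vamp2 (0.47) and Cplx2 (0.42), lay over 0.3 above the mean of the other 5, beside 3.15%. Cplx1 lay at -0.99 in that array.

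Markers of other cells also differed in heterozygous 3. Of the 7 tested bulb and brain neuron markers, 4 were highest in heterozygous 3, beside 19.1% of all genes. They include Rbfox3, the neuronal nuclear antigen, which read 791 there and 49.5 to 184 on the other arrays, and Camk2a, a kinase of forebrain synapses, which read 458 there and 169 to 217 elsewhere. Eomes, a marker of bulb projection neurons, went the other way and read 205 there and 310.5 to 510 elsewhere. Cdhr1, the brightest tested gene of the list, was also lowest there, at 2042 beside 2049 to 2473. Reln was not raised there, at 561 beside 432 to 587. Tbr1, Tbx21 and Th were dim on every array, at 22.9 to 49.5, 1.4 to 11.6 and 24.2 to 84.4, and none of the list was at 0. Of 11 mature olfactory sensory neuron markers, 8 were lowest in heterozygous 3, beside 27.5% of all genes. The mean log2 deviation in heterozygous 3 was 0.13 for the synaptic vesicle and release genes, 0.57 for the bulb and brain list, -0.26 for the mature neuron list, -0.30 for the blood and immune list, of which 5 of 7 were lowest there, and 0.052 for the immature neuron list. The part of these cell types in the values of heterozygous 3 was not tested.

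**Figure D4:**
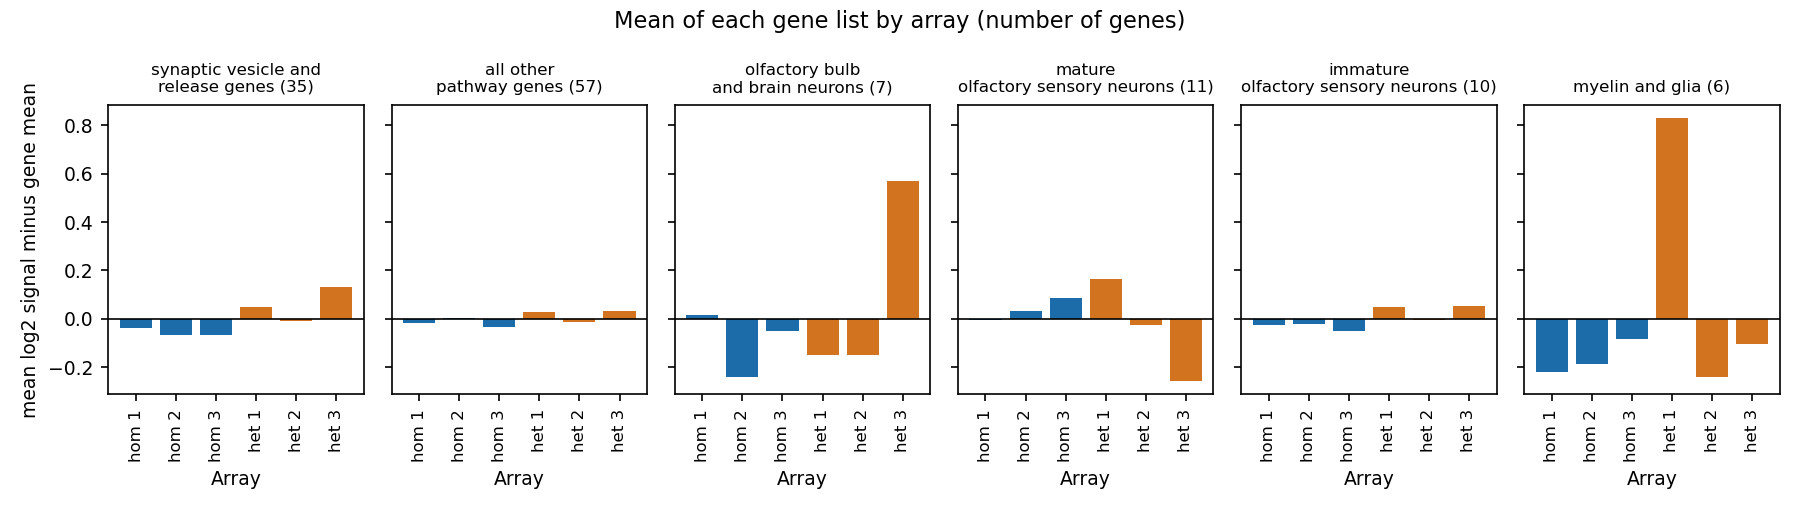
Mean over the genes of each list (number in brackets) of the log2 signal minus the gene's mean over 6 arrays, for each array; blue bars are homozygous and orange bars heterozygous. The synaptic vesicle and release genes reach 0.13 and the bulb and brain markers 0.57 in heterozygous 3, where mature olfactory sensory neuron markers stand at -0.26, and myelin and glia markers reach 0.83 in heterozygous 1.

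Further genes of the vesicle cycle, 85 in 5 lists, were read for comparison. Of these 79 were on the array and 57 tested, with 36 lower and 21 higher in homozygous arrays, beside 50.2% of all genes lower, a median log2 difference of -0.03, and 0 past adjustment. At an unadjusted p under 0.05 in limma there were 4 (Clta, Ap2a1, Sh3gl2 and Snap47), all lower in homozygous arrays, beside 2.56% of all genes. In the vesicle retrieval list 14 of 17 genes were lower, and its difference from other lists was not tested. Clta, a clathrin light chain of the vesicle coat, read 5824, 5713 and 6205 in homozygous and 7206, 7606 and 7657 in heterozygous arrays at probe set 1421062_s_at. These groups are well apart, with means of 5914 ± 258 and 7490 ± 247 (SD, n = 3 each). The log2 difference was -0.34 ± 0.06 and the adjusted p 0.689 in limma, place 2 of 11426 by p. At its other tested probe sets Clta differed by -0.05 and 0.21, so they do not share this difference.

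Adaptors and SNAREs outside the member list gave differences of varied size. Ap2a1, a subunit of the clathrin adaptor, read 339, 253.5 and 294 in homozygous and 413, 369 and 434 in heterozygous arrays, a log2 difference of -0.42 ± 0.12 without overlap. Sh3gl2, the membrane-bending endophilin of neurons, differed by -0.34 ± 0.12 without overlap, with -0.16 and 0.02 at its other probe sets. Cltc, the clathrin heavy chain, differed by 0.03. In the SNARE list, 8 of 15 tested genes were lower, and Snap47, a relative of Snap25, differed by -0.19 ± 0.06, without overlap at either of its probe sets. Among active zone and priming genes 8 of 12 were lower, and Cadps2, which primes vesicles, differed by -0.14 ± 0.06, also without overlap. Of the other calcium sensors and complexins, 1 of 12 was tested, Syt9 at -0.13, and 5 of 12 further vesicle membrane genes were lower, with Atp6v1b2, a proton pump subunit, at 0.15.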

How the data were processed

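Affymetrix mouse expression arrays measured RNA from 3 homozygous and 3 heterozygous OMP-GFP samples. The deposited values are MAS5 signals (a linear intensity per probe set), per the submitters' processing notes, with version and settings not given in the sources used here. Their 2% trimmed mean was 500 on every array, so no scaling was added. Detection calls were not used here.

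Signals were taken as log2(value + 38.8), where 38.8 is the 25th percentile over all arrays, which understates changes of dim probe sets. Probe sets at or above the median mean were kept (22514 of 45101, without 64 controls), and each gene was represented by its brightest probe set naming 1 gene (11426 genes). Genotypes were compared with limma 3.58.1 in R 4.3.3 (lmFit, eBayes with trend, 4 residual degrees of freedom, prior 6.96) and Benjamini-Hochberg adjustment at 0.05 over all genes. Other probe sets were fitted over all 22514. The number of arrays limits precision.

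Members and lists were chosen with earlier results of these data known. Per-array values were given for members at unadjusted p under 0.05, without overlap, among the 2 brightest of a role, or with discordant probe sets. Those of Napb, Cplx1, Cplx2, Syn1, Syn3 and Rab3b were added after values were seen, as were Rbfox3, Camk2a, Tbr1, Tbx21, Th and the promoter motifs. Promoters are RefSeq's. Alternatives are given in the closing section.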

Additional observations from a re-analysis of the deposited data

How the results depend on the processing

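Over all settings the members past adjustment numbered 0. Of the 35 tested members 18 kept their direction under every setting tried, including Vamp2, Rab3a, Rims1, Syn1, Cplx2 and Slc17a6, and the other 17 did not. Genes past adjustment in limma were 0 of all tested (590 at an unadjusted p under 0.05), and 0 to 1 with 1 array left out (the 1 without heterozygous 1), and 9 without heterozygous 1 and 3. Members at an unadjusted p under 0.05 in limma numbered 3 (5.16% of all genes), 5 with array medians set equal (4.91%), and 2 to 5 with 1 array left out (3.13% to 7.61%; 5 without heterozygous 2). The members' median was -0.09, -0.11 to -0.044 with 1 array left out, and -0.023 without heterozygous 1 and 3. With the filter at the 75th percentile 22 members were tested, 19 of them lower. The replicate number as a block gave 0 genes past adjustment, 4 members at an unadjusted p under 0.05 (4.38% of all genes) and the same median of -0.09. Deviations of same-numbered arrays correlated at 0.0106, -0.107 and -0.0871, beside -0.0332 to 0.116 for arrays of unlike number. No deviation shared by number was seen, but such correlations cannot settle whether the samples were paired.

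Reversals on the log2 scale were as follows, and the cause was not tested. With a common median Vamp1 was at -0.022, Sypl at -0.010 and Bsn at -0.0097. After quantile normalization Vamp1 was at -0.0024 and Syt11 at 0.012. With the mean of all probe sets Nsf was at 0.071 and Pclo at 0.026. Without heterozygous 1 and 3 Snap25 was at 0.027, Napb 0.19, Syt7 0.15, Syt11 0.066, Cplx1 0.056, Sypl -0.073, Syn2 0.098, Rab3b 0.068, Pclo 0.093, Dnm1 0.052 and Snap91 0.031. With 1 array left out the ranges were -0.13 to 0.14 for Vamp1, -0.052 to 0.020 for Vamp4, -0.11 to 0.025 for Snap25, -0.019 to 0.11 for Napa, -0.17 to 0.15 for Napb, -0.10 to 0.028 for Nsf, -0.14 to 0.051 for Syt7, -0.069 to 0.028 for Syt11, -0.67 to 0.39 for Cplx1, -0.022 to 0.085 for Sypl, -0.11 to 0.037 for Syngr1, -0.055 to 0.036 for Syn2, -0.11 to 0.13 for Bsn, -0.18 to 0.055 for Pclo and -0.11 to 0.0028 for Dnm1.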
